A study of Mus musculus with 24 samples.

Results

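The genes examined here were Nfe2l2, which encodes the transcription factor NRF2, its adaptor gene Keap1, and 8 genes known as NRF2 targets, namely Hmox1, Nqo1, Gclc, Gclm, Txnrd1, Srxn1, Gsr and G6pdx. They were chosen by gene symbol, with earlier results of these data known. All 10 were found among the 56941 genes listed and among the 13315 genes that passed the filter on low counts. RNA was sequenced from sheets of C2C12 muscle, a mouse myoblast line carrying the blue light-gated channel ChR2(H134R) tagged with tdTomato (genotype ChR2::tdTomato), differentiated on grooved fibrin gels. Tissues of the 60-min experiment were either left unstimulated (Control) or exercised with light each day at 1 Hz, 4 Hz or 10 Hz (labelled x1Hz, x4Hz and x10Hz), with 6 biological replicates per condition and 24 libraries in all. Every tissue, the controls included, carried the channel and was differentiated in medium with horse serum and IGF-1. All tissues came from 1 engineered line, so the replicates are cultures of that line and not animals.

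NRF2 is held in the cytoplasm by KEAP1, which presents it to a cullin-3 ubiquitin ligase for degradation. When cysteines of KEAP1 are modified by oxidants or electrophiles, NRF2 escapes, enters the nucleus, pairs with small MAF proteins and binds the antioxidant response element of its targets. The targets rebuild glutathione and reduced thioredoxin, supply NADPH and break down heme and quinones, and in muscle they are known for handling the oxidants that contraction produces. NRF2 activity is set mainly through the stability of the protein, which RNA levels do not report.

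The element is shown first because it is the sequence feature that the 8 target genes are known for. Its core TGACNNNGC and the related AP-1 element TGAGTCA were searched on both strands in the 1000 bases before the canonical start of each gene (GENCODE M39, GRCm39). The letters of the second motif, read on the other strand, can fall inside the first, but no gene among the 10 had both. The core was found before 4 of the 10 genes, against 28.2% of 21770 windows of protein-coding genes, and TGAGTCA before 1 of the 10, against 15.2%. The matches are printed 5′ to 3′ on the strand of the gene with the motif in capitals, which reads GCNNNGTCA where it lies in reverse, and with 10 bases on each side. A match describes the letters of the window and is not a measured binding site.
Nfe2l2, 262 bases before the start, chr2:75535229-75535257, minus strand: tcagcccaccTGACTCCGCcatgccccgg
Gclm, 54 bases before the start, chr3:122039062-122039090, plus strand: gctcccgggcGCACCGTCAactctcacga
Txnrd1, 65 bases before the start, chr10:82694938-82694966, plus strand: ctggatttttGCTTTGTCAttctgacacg
Gsr, 744 bases before the start, chr8:34142512-34142540, plus strand: acgtttcttaTGACTTAGCagtatttaat
Srxn1, 45 bases before the start, chr2:151947389-151947415, plus strand: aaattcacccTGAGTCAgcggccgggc
Txnrd1, Gsr and Srxn1 each had a further match, at 371, 516 and 102 bases before their starts. The windows of Keap1, Hmox1, Nqo1, Gclc and G6pdx held neither string of letters within this distance. The printed stretches of Nfe2l2 and Txnrd1 overlapped an exon annotated there, and the Txnrd1 matches lay within the outer bounds of the gene, whose other transcripts start further upstream. The Gsr match at 516 bases also lay within the outer bounds of its gene (chr8:34142551-34188192), which begin upstream of the canonical start. The printed Gsr match lay just outside these bounds. All distances are counted from the canonical start.

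The libraries held 8052369 to 18159144 estimated counts, with a median of 10481932. Levels within a gene are given as CPM (counts relative to library size) after TMM scaling, which assumes that most genes do not differ between libraries. Levels between genes are given as TPM, which also corrects for transcript length. On the TMM scale 37.3% of all genes tested differed from control at 1 Hz and 51.4% at 4 Hz (adjusted p under 0.05 in edgeR). Whether the assumption held was not tested. The TMM factors ran from 0.869 to 1.07, and the 4 factors under 0.95 belonged to replicates 4 and 6 at 1 Hz and replicates 3 and 4 at 4 Hz. The labels call the cells myoblasts, and the tissues expressed all 8 myotube markers, the lowest at 119 CPM in any library, while the 9 markers of adipocytes, endothelium, leukocytes and neurons stayed under 0.556 CPM in every library. The summed CPM of the 8 spanned 10470 to 13250 in controls, 8630 to 14760 at 1 Hz, 11420 to 14270 at 4 Hz and 10080 to 12120 at 10 Hz. Of the 8 only Myog, a differentiation factor, passed at 1 Hz and 4 Hz (log2(fold change) -1.34 and -1.47), and of the 2 myoblast markers Pax7 was lower (-1.58 and -1.53) and Myf5 higher (1.32 and 1.17). The part of these shifts in the results for the NRF2 genes was not tested. In bulk RNA, fewer cells of a type and less RNA per cell cannot be told apart. Of the 10 genes 8, all but Hmox1 and Nqo1, overlap a gene annotated on the opposite strand, and the sources used here do not state whether counting used the strand of the directional libraries. The autosomal copy of G6pdx, G6pd2, reached at most 0.111 CPM in any library.

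In unstimulated tissue the members spanned a wide range of levels per transcript length. Hmox1 (heme oxygenase 1) had the highest TPM at 1154 ± 66.5 (SD, n = 6), followed by Txnrd1 (cytosolic thioredoxin reductase) at 401 ± 36.4. Gclm at 135 ± 9.77, Nfe2l2 at 135 ± 11.2 and Srxn1 at 112 ± 6.83 formed a middle set, in which neighbours in the order overlapped between libraries. Gclc had 44.6 ± 3.96 TPM and stood apart from the genes on either side. Gsr at 29.5 ± 3.18, G6pdx at 25.1 ± 3.93 and Keap1 at 22.3 ± 2.30 overlapped from one to the next, and Nqo1 was lowest at 15.8 ± 2.59 TPM.

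Tissues stimulated daily at 1 Hz and 4 Hz were compared with the control for these genes. Controls were not stimulated with light, so effects of blue light and of light-driven contraction cannot be told apart in this design. The paper states that short-wavelength light can itself give rise to reactive oxygen species. Its authors also saw spontaneous twitching in all conditions, controls included. At 1 Hz, 8 of the 10 genes were downregulated at an adjusted p under 0.05, 1 (Nqo1) was upregulated and 1 (Nfe2l2) did not pass. At 4 Hz, 9 were downregulated and Nqo1 did not pass. These tests come from edgeR's quasi-likelihood method, with the 24 libraries fitted together and p-values adjusted (Benjamini-Hochberg) over every gene tested. Many genes passed in the same comparisons: 37.3% of all genes tested at 1 Hz (18.1% lower and 19.2% higher) and 51.4% at 4 Hz (23.9% lower and 27.5% higher). With the study's fold threshold of 0.5 on the log2 scale added, 4 of the 10 were downregulated at 1 Hz against 7.74% of all genes, and 6 at 4 Hz against 12.3%. The median log2(fold change) of the 10 genes was -0.45 at 1 Hz and -0.58 at 4 Hz, beside 0.04 and 0.06 over all genes tested. Every stimulated library lay below every control library for 5 of the 10 genes at 1 Hz and for 7 at 4 Hz, which was the case for 8.58% and 14.7% of all genes. Without the 4 libraries of low TMM factor the counts were 8 downregulated and 0 upregulated at 1 Hz, and 9 downregulated at 4 Hz. No share of all genes is given for this reduced set.

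**Figure D1:**
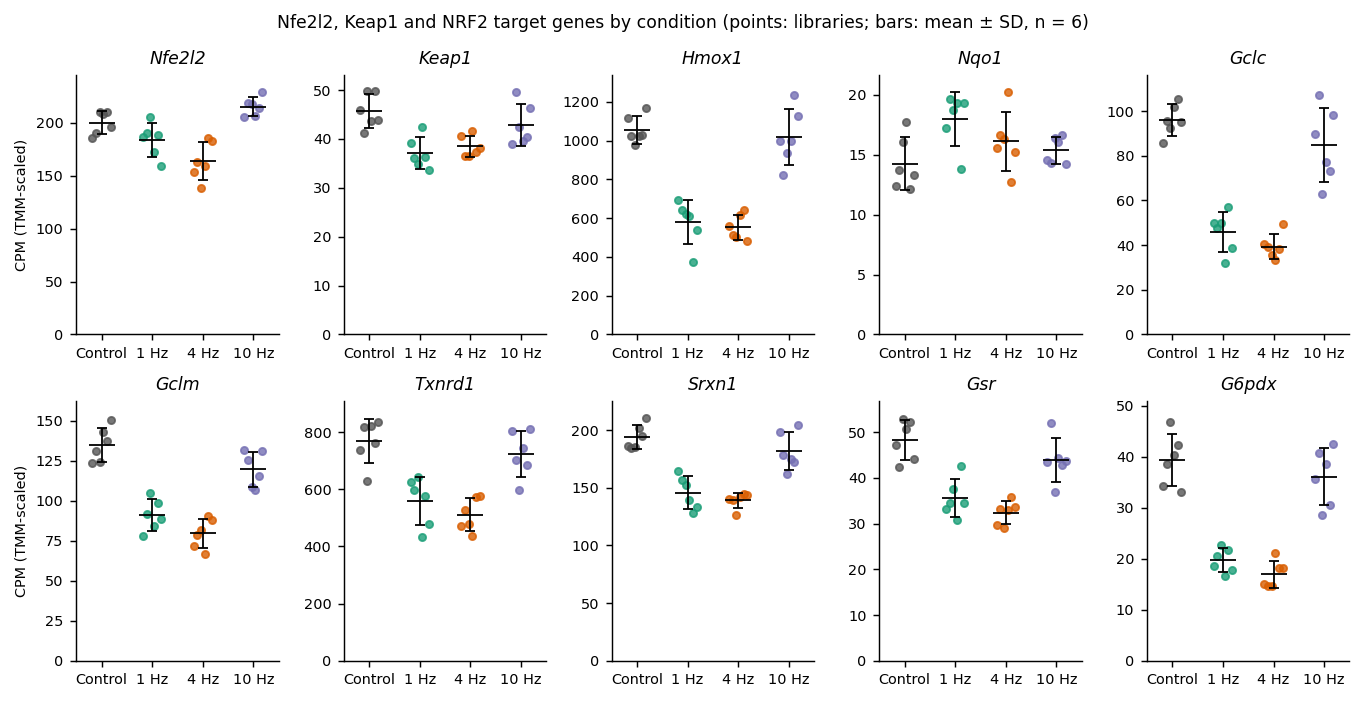
CPM on the TMM scale (y axis, from 0, a separate scale for each gene) for the 10 genes in Control, 1 Hz, 4 Hz and 10 Hz tissues (x axis). Points are libraries and bars are the mean ± SD (n = 6). For Gclc, G6pdx, Hmox1, Gclm and Srxn1 all libraries at 1 Hz and 4 Hz sit below all control libraries, while the 10 Hz libraries overlap the controls in every panel.

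Of the factor and its sensor, Keap1 was downregulated at both frequencies and Nfe2l2 at 4 Hz. Nfe2l2 (ENSMUSG00000015839, chr2:75504739-75534985, minus strand) spanned 186 to 211 CPM in controls with a median of 202, 159 to 205 at 1 Hz with a median of 188, 138 to 186 at 4 Hz with a median of 161, and 205 to 229 at 10 Hz with a median of 216. The 1 Hz libraries overlapped the controls, and 5 of the 6 libraries at 4 Hz lay below the lowest control. The log2(fold change) was -0.12 ± 0.07 (SE) at 1 Hz, with an adjusted p of 0.165 in edgeR, and -0.29 ± 0.07 at 4 Hz, with an adjusted p of 0.00137. Keap1 (ENSMUSG00000003308, chr9:21141026-21150679, minus strand) is the sensor that targets NRF2 for degradation. Its levels were 41.3 to 49.8 CPM in controls (median 45.0), 33.6 to 42.5 at 1 Hz (median 36.2), 36.5 to 41.6 at 4 Hz (median 37.8) and 38.95 to 49.5 at 10 Hz (median 41.4). In both stimulated groups 5 of 6 libraries lay below the lowest control. The log2(fold change) of Keap1 was -0.30 ± 0.07 at 1 Hz, with an edgeR adjusted p of 0.00271, and -0.25 ± 0.07 at 4 Hz, with 0.00736.

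The strongest downregulation among the 10 genes was that of Gclc (ENSMUSG00000032350, chr9:77661797-77701770, plus strand), the catalytic subunit of glutamate-cysteine ligase, which performs the rate-limiting step of glutathione synthesis. Gclc spanned 85.5 to 105 CPM in controls (median 95.3), 32.1 to 57.0 at 1 Hz (median 48.7) and 33.1 to 49.3 at 4 Hz (median 38.8). The stimulated libraries did not overlap the controls at either frequency. Mean CPM fell by 52.3% at 1 Hz and by 59.0% at 4 Hz, with log2(fold change) -1.07 ± 0.13 (SE; edgeR adjusted p = 5.75e-07) and -1.28 ± 0.13 (adjusted p = 2.15e-08). Gclm (ENSMUSG00000028124, chr3:122039126-122065061, plus strand), the modifier subunit that makes the enzyme more efficient, was downregulated to a lesser degree. It spanned 124 to 150 CPM in controls (median 134), 77.9 to 105 at 1 Hz (median 90.1) and 66.8 to 90.4 at 4 Hz (median 80.2), again with no overlap. Its log2(fold change) was -0.57 ± 0.08 at 1 Hz, with an edgeR adjusted p of 9.46e-06, and -0.76 ± 0.08 at 4 Hz, with 9.03e-08.

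Because both subunits form 1 enzyme, the ratio of Gclm to Gclc was taken within each library on TPM, where it does not depend on how libraries are scaled. The ratio was 2.79 to 3.33 in controls (median 3.04), 3.39 to 5.84 at 1 Hz (median 4.30) and 3.54 to 5.53 at 4 Hz (median 4.67). All 6 libraries at each of these frequencies lay above all controls. The difference in mean log2 ratio was 0.52 at 1 Hz and 0.62 at 4 Hz, each with p = 0.0022 in a two-sided exact permutation test, the smallest that its 924 splits can give, and an adjusted p of 0.0065 over the 6 ratio tests run. At 10 Hz the ratio was 2.53 to 3.66 (median 3.04) and differed from controls by 0.01 on the log2 scale (exact permutation p = 0.903, adjusted p = 0.978).

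The ratio of Nfe2l2 to Keap1, the factor to its repressor, was taken the same way. It was 5.51 to 6.60 in controls (median 6.004), 5.73 to 8.34 at 1 Hz (median 6.97), 5.42 to 7.02 at 4 Hz (median 5.95) and 5.83 to 7.41 at 10 Hz (median 7.09). Groups overlapped throughout, with 5 of 6 libraries at 10 Hz above the highest control. The log2 difference from control was 0.21 at 1 Hz (exact permutation p = 0.0390, adjusted p = 0.0584), 0.003 at 4 Hz (adjusted p = 0.978) and 0.19 at 10 Hz (exact permutation p = 0.0195, adjusted p = 0.0390). The call at 10 Hz was lost when any 1 of 9 of the 12 libraries was left out (replicates 1, 3, 5 and 6 of the controls and replicates 1, 3, 4, 5 and 6 at 10 Hz), with adjusted p up to 0.0779. The 1 Hz ratio passed without control replicate 4 (adjusted p = 0.0455) or without 1 Hz replicate 4 (adjusted p = 0.0130).

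**Figure D2:**
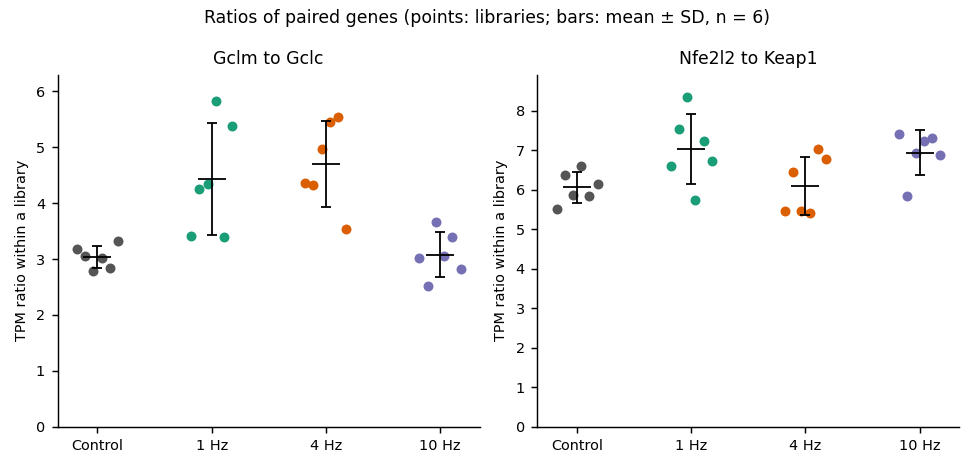
Ratio of TPM within a library (y axis, from 0) for Gclm to Gclc and for Nfe2l2 to Keap1 in the 4 conditions (x axis). Points are libraries and bars are the mean ± SD (n = 6). The Gclm to Gclc ratio lies above all controls in all 12 libraries at 1 Hz and 4 Hz, and the Nfe2l2 to Keap1 ratio overlaps between all conditions.

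Hmox1 (ENSMUSG00000005413, chr8:75820241-75827217, plus strand), the inducible enzyme that degrades heme to biliverdin, iron and carbon monoxide, had 975 to 1167 CPM in controls (median 1027). It had 376 to 692 CPM at 1 Hz (median 616) and 484 to 640 at 4 Hz (median 535), so that all 12 stimulated libraries lay below all controls. Mean CPM fell by 45.1% at 1 Hz and by 47.7% at 4 Hz. The log2(fold change) was -0.86 ± 0.11 (SE; edgeR adjusted p = 2.37e-06) and -0.94 ± 0.11 (adjusted p = 3.68e-07). The lowest of the 1 Hz libraries, replicate 5 with 376 CPM, stood apart from the next at 540, and without it the log2(fold change) at 1 Hz was -0.77 (adjusted p = 1.21e-06).

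Nqo1 (ENSMUSG00000003849, chr8:108113835-108129934, minus strand), a quinone reductase widely used as a readout of NRF2 activity, was the exception in direction on the TMM scale, though not at 4 Hz on log2(TPM + 1). It spanned 12.2 to 17.7 CPM in controls (median 13.5), 13.8 to 19.7 at 1 Hz (median 19.0), 12.7 to 20.2 at 4 Hz (median 15.9) and 14.2 to 16.7 at 10 Hz (median 15.3). At 1 Hz 4 of 6 libraries lay above the highest control, and the groups overlapped. Nqo1 was upregulated at 1 Hz, with log2(fold change) 0.34 ± 0.11 (edgeR adjusted p = 0.0177), and did not pass at 4 Hz, with 0.18 ± 0.11 (adjusted p = 0.187). The 1 Hz call did not hold without 1 Hz replicate 4 or replicate 6 (adjusted p = 0.0559 and 0.0562), nor on the TPM scale without TMM (0.12, adjusted p = 0.458), where the 4 Hz value was -0.14.

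Txnrd1 and Srxn1, which act on thioredoxin and peroxiredoxins, were downregulated at both frequencies. Txnrd1 (ENSMUSG00000020250, chr10:82669785-82733546, plus strand), which reduces thioredoxin with NADPH, spanned 631 to 837 CPM in controls (median 791), 434 to 643 at 1 Hz (median 588) and 438 to 576 at 4 Hz (median 504). One library at 1 Hz reached above the lowest control and none did at 4 Hz. Its log2(fold change) was -0.46 ± 0.10 at 1 Hz, with an edgeR adjusted p of 0.000824, and -0.59 ± 0.10 at 4 Hz, with 3.16e-05. Srxn1 (ENSMUSG00000032802, chr2:151947436-151957687, plus strand), the sulfiredoxin that repairs overoxidized peroxiredoxins, spanned 185 to 211 CPM in controls (median 191), 128 to 165 at 1 Hz (median 146) and 127 to 145 at 4 Hz (median 141), with no overlap. Its log2(fold change) was -0.41 ± 0.07 at 1 Hz, with an edgeR adjusted p of 4.54e-05, and -0.48 ± 0.07 at 4 Hz, with 3.64e-06.

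G6pdx and Gsr, which make and use NADPH, were downregulated at both frequencies. G6pdx (ENSMUSG00000031400, chrX:73449857-73472819, minus strand), the enzyme that commits glucose to the pentose phosphate pathway, spanned 33.2 to 46.9 CPM in controls (median 39.5), 16.7 to 22.7 at 1 Hz (median 19.6) and 14.6 to 21.1 at 4 Hz (median 16.6). No stimulated library reached the lowest control, and mean CPM fell by 56.9% at 4 Hz. The log2(fold change) of G6pdx was -0.9997 ± 0.11 at 1 Hz, with an edgeR adjusted p of 3.32e-07, and -1.21 ± 0.11 at 4 Hz, with 1.13e-08. Gsr (ENSMUSG00000031584, chr8:34142551-34188192, plus strand), which uses NADPH to regenerate reduced glutathione, spanned 42.4 to 53.0 CPM in controls (median 49.0), 30.7 to 42.6 at 1 Hz (median 34.6) and 29.0 to 35.8 at 4 Hz (median 33.1). One library at 1 Hz, replicate 5, reached above the lowest control, and none did at 4 Hz. Gsr had a log2(fold change) of -0.44 ± 0.09 at 1 Hz, with an edgeR adjusted p of 0.000255, and -0.57 ± 0.09 at 4 Hz, with 7.02e-06.

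Tissues stimulated at 10 Hz were compared with controls in the same fit. None of the 10 genes passed at 10 Hz against control in edgeR or in DESeq2, where 0.0376% of all genes tested passed in edgeR. At an unadjusted p under 0.05 there was 1, Gclm (log2(fold change) -0.17, unadjusted p = 0.0457, below the control mean in 6 of 6 libraries), against 8.07% of all genes. No member had all 10 Hz libraries below all controls (0.864% of all genes) or above all of them (0.774%). The values against control ran from -0.18 for Gclc to 0.11 for Nfe2l2, with a median of -0.09 beside 0.007 over all genes. For Gclc the levels at 10 Hz were 63.0 to 107 CPM (median 83.5), and the 95% interval of its log2(fold change) was -0.43 to 0.07. For Hmox1 they were 823 to 1234 CPM (median 999), with an interval of -0.28 to 0.18. For G6pdx they were 28.7 to 42.6 CPM (median 37.1), with an interval of -0.35 to 0.10. These intervals leave room for changes of that size and do not reach the point estimates at 1 Hz and 4 Hz.

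Compared directly, 9 of the 10 genes were higher at 10 Hz than at 1 Hz (27.9% of all genes passed, 14.8% higher), and 8 were higher at 10 Hz than at 4 Hz (46.3% passed, 21.9% higher). All 6 libraries at 10 Hz lay above all at 1 Hz for 4 genes, Hmox1, Gclc, Gclm and G6pdx (5.03% of all genes), and above all at 4 Hz for 8 genes (10.8% of all genes). With the fold threshold of 0.5 added, 3 genes were higher at 10 Hz than at 1 Hz (5.85% of all genes) and 5 than at 4 Hz (10.6%). Against 4 Hz, Gclc was higher at 10 Hz by 1.10 ± 0.13 on the log2 scale (edgeR adjusted p = 3.31e-07), G6pdx by 1.09 ± 0.12 (adjusted p = 1.13e-07), Hmox1 by 0.89 ± 0.11 (adjusted p = 1.36e-06) and Nfe2l2 by 0.39 ± 0.07 (adjusted p = 8.18e-05). Keap1 was 0.21 ± 0.07 higher at 10 Hz than at 1 Hz (adjusted p = 0.0405), a call lost without any 1 of 1 Hz replicates 2, 3, 5 or 6 or 10 Hz replicates 2 or 6 (adjusted p up to 0.113). Against 4 Hz the value for Keap1 was 0.16 (adjusted p = 0.0923), and it passed without 4 Hz replicate 4 or 10 Hz replicate 1 (adjusted p = 0.0442 and 0.0417). Nqo1 passed in neither comparison, at -0.23 (adjusted p = 0.115) and -0.07 (adjusted p = 0.627), but passed against 1 Hz without 1 Hz replicate 5 (-0.30, adjusted p = 0.0335). Without the 4 libraries of low TMM factor, 6 genes remained higher than at 1 Hz, with adjusted p of 0.0845 for Nfe2l2, 0.0519 for Txnrd1 and 0.0719 for Gsr. For this reduced set no share of all genes is given.

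Between 4 Hz and 1 Hz none of the 10 genes passed in edgeR or DESeq2, and 0 of the 13315 genes tested (0%) did in edgeR. At an unadjusted p under 0.05 there were 2, Nfe2l2 (-0.16) and Gclm (-0.19), against 11.0% of all genes. Of the 10 values 9 were negative, from -0.21 for Gclc and G6pdx to -0.06 for Srxn1, and Keap1 was at 0.05. The interval for Gclc was -0.47 to 0.05 and that for G6pdx -0.45 to 0.03, which do not exclude a further decrease at 4 Hz of up to these sizes. The comparisons with 1 Hz, 4 Hz and the control share libraries and are not independent of each other.

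Single libraries differed in which genes were low. Of the 10 genes, 8 to 10 were below the control mean in each library at 1 Hz and 9 to 10 in each at 4 Hz, beside 2 to 9 in single control libraries and 2 to 8 at 10 Hz. The median over the 10 genes, as log2 CPM minus the control mean, ran from -0.66 to -0.36 over the libraries at 1 Hz, from -0.70 to -0.42 at 4 Hz, from -0.28 to 0.06 at 10 Hz and from -0.08 to 0.07 among controls. At 1 Hz, replicate 5 had the lowest Hmox1 and Nqo1 (376 and 13.8 CPM) together with the highest Gclc and Gsr (57.0 and 42.6 CPM). The lowest Gclc and Txnrd1 at 1 Hz belonged to replicates 4 and 6, with 32.1 and 38.5 CPM of Gclc, and the lowest Gclc at 4 Hz to replicates 4 and 3, with 33.1 and 35.5 CPM. These are the 4 libraries of low TMM factor, and without them Gclc had a log2(fold change) of -0.91 at 1 Hz and -1.22 at 4 Hz. At 10 Hz, replicate 3 had the lowest Gclc, Txnrd1, Gsr and G6pdx (63.0, 598, 37.0 and 28.7 CPM).

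**Figure D3:**
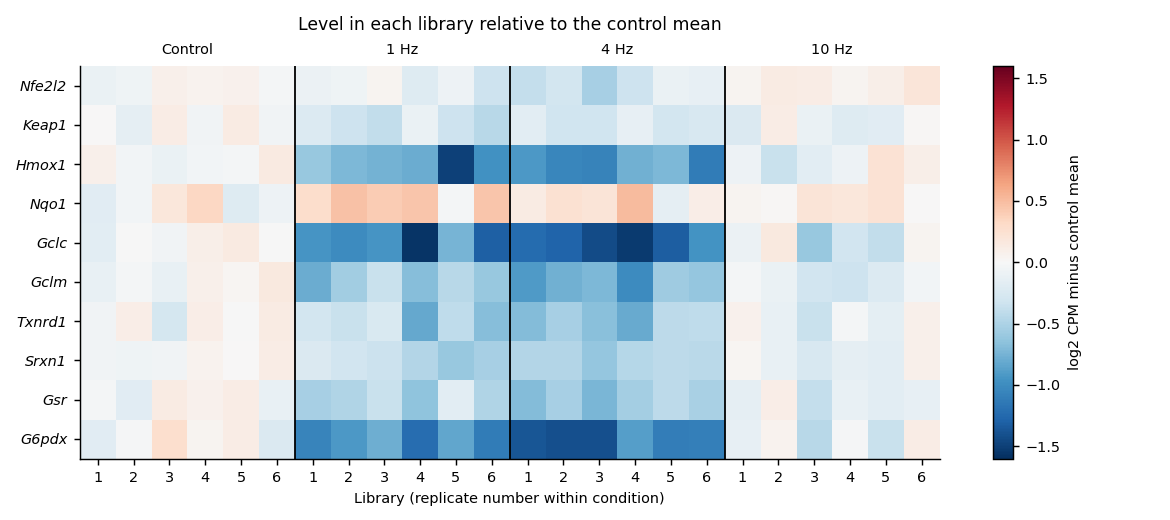
log2 CPM minus the control mean (colour) for the 10 genes (rows) in each library (columns, by replicate number within Control, 1 Hz, 4 Hz and 10 Hz). Blue cells for Hmox1, Gclc and G6pdx reach across all libraries at 1 Hz and 4 Hz, the Nqo1 row is mostly red there on this TMM scale (at 4 Hz its sign turned on log2(TPM + 1)), and single library medians at 10 Hz run from -0.28 to 0.06.

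The directions of most members held on another scale. On log2(TPM + 1) without TMM scaling, the median of all genes was shifted by -0.14 at 1 Hz and by -0.21 at 4 Hz, and the share of lower genes among those passing went from 48.5% to 85.9% at 1 Hz and from 46.5% to 86.0% at 4 Hz. With TMM factors applied to the TPM the shares were 58.5% and 53.3%. On log2(TPM + 1), limma called 8 members downregulated and 0 upregulated at 1 Hz (21.9% and 3.58% of the 13422 genes on that scale), and 9 and 0 at 4 Hz (35.9% and 5.83%). Relative to the shifted median of all genes, Gclc was at -1.11 and -1.34, G6pdx at -1.01 and -1.27, Hmox1 at -0.95 and -1.06, Nfe2l2 at -0.16 and -0.36, and Nqo1 at 0.27 and 0.07, each at 1 Hz and 4 Hz in turn.

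Log2(fold change) also went with transcript length at these frequencies. The median over all genes fell from 0.24 in the shortest quintile of canonical transcripts to -0.08 in the longest at 1 Hz, and from 0.35 to -0.12 at 4 Hz, with 0.03 and -0.0013 at 10 Hz. Of the 10 genes, Hmox1 lies in the shortest quintile (1577 bases), Nqo1 and Gsr in the next, Nfe2l2, Keap1, Gclc and Txnrd1 in the middle, and Gclm, Srxn1 and G6pdx in the longest. Relative to the median of its own quintile, Hmox1 was at -1.10 and -1.28, Gclc at -1.09 and -1.30, G6pdx at -0.92 and -1.09, Srxn1 at -0.34 and -0.36, and Nqo1 at 0.25 and 0.06, at 1 Hz and 4 Hz. At each frequency 9 of the 10 genes were below the median of their quintile, and 8 at 10 Hz. The part of length in the remaining differences was not tested.

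**Figure D4:**
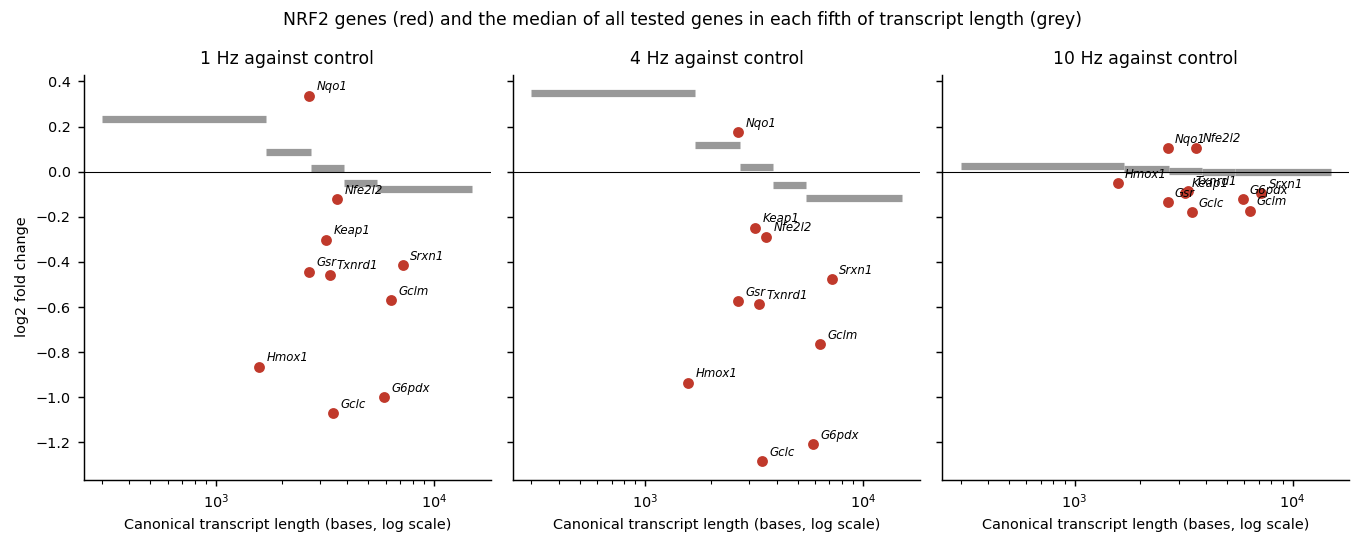
log2(fold change) against control (y axis) by canonical transcript length in bases (x axis, log scale, outer bars cut to the axis) at 1 Hz, 4 Hz and 10 Hz. Red points are the 10 NRF2 genes and grey bars the median of all tested genes in each quintile of length. At 1 Hz and 4 Hz 9 red points lie below the bar of their quintile, and the bars are nearly level at 10 Hz.

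The wider pathway was examined next. A list of 48 further genes known as regulators, cofactors or targets of NRF2 was examined, of which 44 had enough counts to be tested and Gstm3, Gstm4, Gpx2 and Cyp2a5 did not. This list too was chosen with earlier results of these data known. On the TMM scale 4 of the 44 were downregulated and 21 upregulated at 1 Hz (18.1% and 19.2% of all genes), and 8 and 26 at 4 Hz (23.9% and 27.5% of all genes), with medians of 0.24 and 0.26. At 10 Hz none passed in edgeR, with 10 at an unadjusted p under 0.05 (8.07% of all genes). In DESeq2 1 passed, Gsta2, an alpha class glutathione transferase (0.46, adjusted p = 0.00983), a gene named after its values were seen. The share of all genes passing in DESeq2 is not given here, and the edgeR shares do not stand for it. The counts at 1 Hz and 4 Hz depended on the scale. On log2(TPM + 1) they were 7 lower and 5 higher at 1 Hz (21.9% and 3.58% of all genes on that scale) and 12 and 4 at 4 Hz (35.9% and 5.83%), with medians 0.14 above that of all genes at both frequencies. Of the 44, 17 lie in the shortest quintile of transcripts, and 26, 23 and 35 of the 44 were above the median of their own quintile at 1 Hz, 4 Hz and 10 Hz. At 10 Hz the median log2(fold change) of the 44 was 0.07, beside 0.007 over all genes tested.

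The listed genes with the smallest p among those downregulated were Slc7a11, Abcc4 and Pgd. Slc7a11, the cystine transporter that supplies cysteine for glutathione, spanned 31.0 to 36.3 CPM in controls, 9.21 to 21.6 at 1 Hz and 6.76 to 19.6 at 4 Hz, with no overlap and log2(fold change) -0.98 ± 0.22 (edgeR adjusted p = 0.00164) and -1.30 ± 0.23 (adjusted p = 7.24e-05). Abcc4, an exporter of glutathione conjugates and cyclic nucleotides, was at -0.70 ± 0.14 (adjusted p = 0.000417) and -0.97 ± 0.14 (adjusted p = 6.28e-06). Pgd, the 6-phosphogluconate dehydrogenase that follows G6pdx in the pentose phosphate pathway, was at -0.44 ± 0.08 (adjusted p = 0.000281) and -0.53 ± 0.09 (adjusted p = 1.51e-05). All 6 libraries at each frequency lay below all controls for each of these genes, and each stayed downregulated on log2(TPM + 1). On the TMM scale the other 3 of 5 tested genes for glutathione synthesis and transport did not pass at either frequency. On log2(TPM + 1) Slc3a2 of these 3, a gene named after its values were seen, was downregulated at 4 Hz (-0.32, limma adjusted p = 0.00996).

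Other genes of these groups went other ways, and those named here were chosen after their values were seen. Of the 8 tested glutathione transferases 5 were upregulated at 1 Hz on the TMM scale and the rest did not pass, while at 4 Hz 6 were upregulated and the other 2, Gsta1 and Gsta4, downregulated. Among all genes tested 18.1% were downregulated and 19.2% upregulated at 1 Hz, and 23.9% and 27.5% at 4 Hz. All 8 but Gsta4 lie in the shortest quintile of transcripts, where 27.2% and 44.2% of all genes were upregulated at 1 Hz and 4 Hz. On log2(TPM + 1) only Mgst1 of the 8 was upregulated (0.42 and 0.38 at 1 Hz and 4 Hz), and Gsta1 (-0.55 and -0.75) and Gsta4 (-0.40 and -0.57) were downregulated at both frequencies. Of the 2 tested genes for thioredoxin and peroxides, Txn1, thioredoxin itself, was upregulated on the TMM scale (0.33 and 0.41, edgeR adjusted p = 0.0222 and 0.00331) and did not pass on log2(TPM + 1) (0.09 and 0.07). Prdx1, a peroxiredoxin, did not pass on the TMM scale (-0.06 and -0.03) and was downregulated on log2(TPM + 1) (-0.32 and -0.40). Of the 5 tested genes for NADPH supply, 1 was downregulated and 2 upregulated at 1 Hz on the TMM scale, and 2 and 2 at 4 Hz, beside the same shares of all genes tested. The upregulated genes were Idh1, the cytosolic isocitrate dehydrogenase (0.37 and 0.23), and Tkt, the transketolase of the pentose phosphate pathway (0.31 and 0.35), and neither passed on log2(TPM + 1), where Idh1 at 4 Hz was at -0.11. Me1, malic enzyme, was at -0.06 at 1 Hz (adjusted p = 0.432) and was downregulated at 4 Hz (-0.15, adjusted p = 0.0311).

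The regulators of the pathway went both ways. The small MAF genes, whose products pair with NRF2 on DNA and can also repress as homodimers, were upregulated on the TMM scale, with Mafg of opposite sign on log2(TPM + 1). Mafk spanned 64.7 to 86.9 CPM in controls, 95.2 to 131 at 1 Hz and 113 to 146 at 4 Hz, with log2(fold change) 0.59 ± 0.09 (edgeR adjusted p = 1.06e-05) and 0.75 ± 0.09 (adjusted p = 2.26e-07). Maff was at 0.49 ± 0.08 (adjusted p = 2.58e-05) and 0.68 ± 0.08 (adjusted p = 1.75e-07), and all 12 libraries lay above all controls for both genes. Both also passed on log2(TPM + 1), at 0.38 and 0.42 for Mafk and at 0.27 and 0.35 for Maff. Mafg was at 0.25 and 0.19 (adjusted p = 0.00764 and 0.0251), with values of -0.06 and -0.27 on log2(TPM + 1). Bach1, a repressor that competes for the same elements, was at 0.31 and 0.45 (adjusted p = 0.0419 and 0.00267), and did not pass on log2(TPM + 1) (0.13 and 0.16).

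Of the ligase that degrades NRF2, Cul3 was downregulated at 4 Hz (-0.22 ± 0.07, edgeR adjusted p = 0.00673) and did not pass at 1 Hz (-0.12, adjusted p = 0.136). Rbx1, its RING subunit, was upregulated at both frequencies (0.28 and 0.30, adjusted p = 0.0267 and 0.0126), which did not pass on log2(TPM + 1). Sqstm1, the autophagy receptor that binds KEAP1, spanned 1022 to 1166 CPM in controls, 829 to 997 at 1 Hz and 712 to 978 at 4 Hz, and was downregulated with -0.27 ± 0.07 (adjusted p = 0.00562) and -0.34 ± 0.07 (adjusted p = 0.000548). Nfe2l1, the related factor NRF1, was upregulated at 4 Hz (0.20 ± 0.06, adjusted p = 0.00373) and was at 0.12 at 1 Hz (adjusted p = 0.0889), with values of 0.03 and -0.08 on log2(TPM + 1). Among the xenobiotic genes, Ugt1a6a, a glucuronosyltransferase that shares exons with the rest of its gene cluster, was at 0.57 ± 0.08 (adjusted p = 4.40e-06) and 0.58 ± 0.08 (adjusted p = 1.71e-06), with all stimulated libraries above all controls and an adjusted p of 0.0784 at 4 Hz on log2(TPM + 1). Of the 11 tested carbonyl and xenobiotic genes, 6 were upregulated at 1 Hz and 7 at 4 Hz on the TMM scale, and 0 downregulated. For the 5 tested heme and iron genes these counts were 2 and 4, with 0 downregulated. Among all genes tested 19.2% and 27.5% were upregulated. Counts of these groups on log2(TPM + 1) are not given here.

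**Figure D5:**
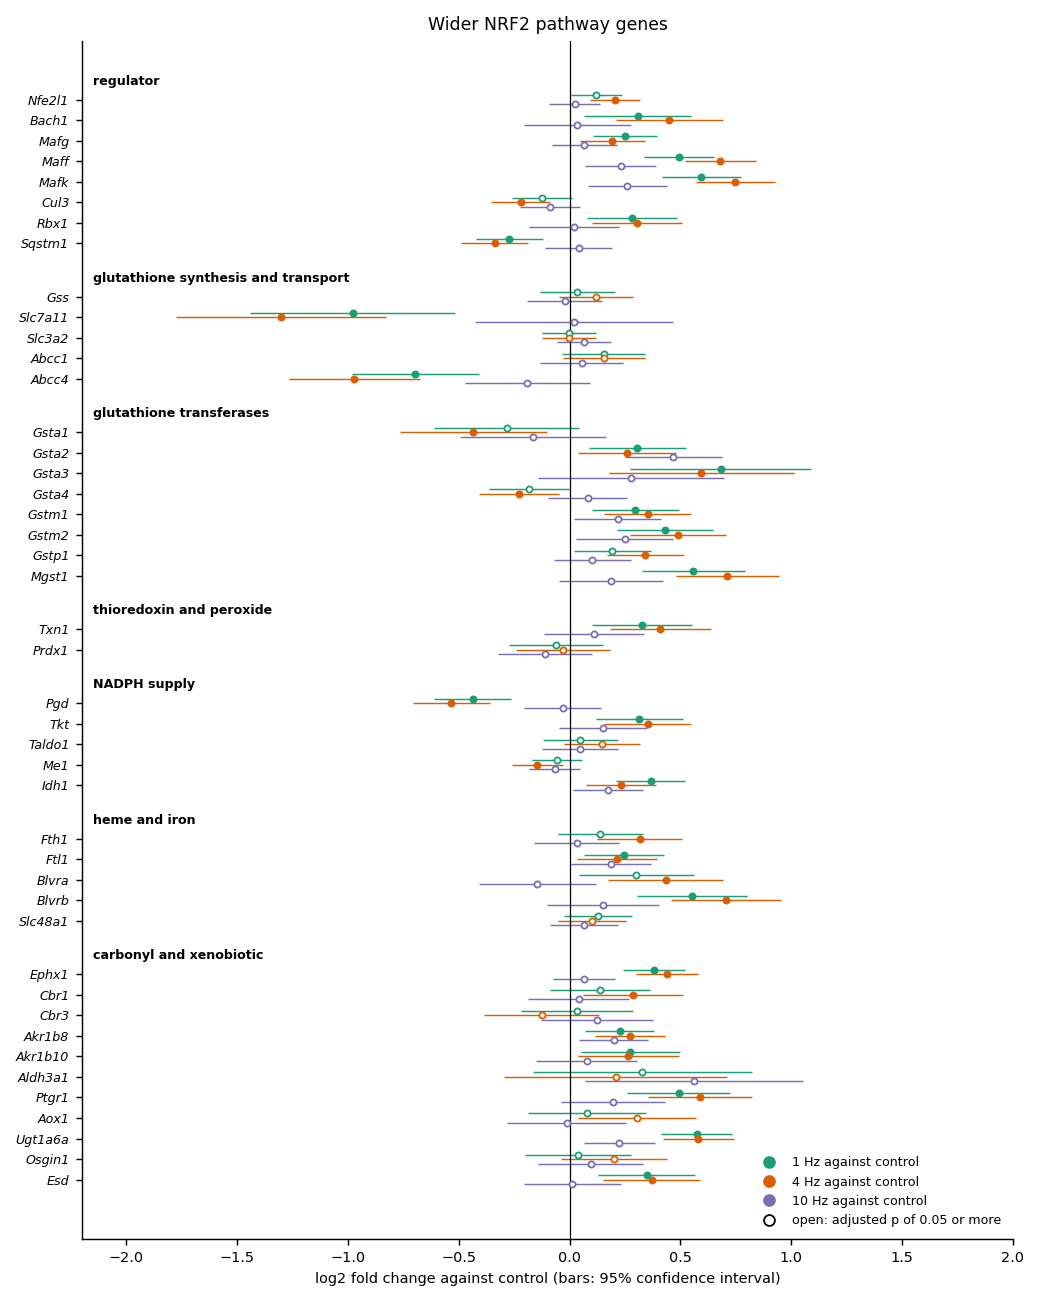
log2(fold change) against control (x axis) with 95% confidence intervals for 44 further NRF2 pathway genes (y axis, by group) at 1 Hz, 4 Hz and 10 Hz. Filled points passed at an adjusted p under 0.05. Slc7a11, Abcc4, Pgd and Sqstm1 lie to the left at 1 Hz and 4 Hz, Mafk, Maff and Ugt1a6a to the right, and no point is filled at 10 Hz.

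Over the 24 libraries, the genes whose log2 CPM was most like that of Nfe2l2 were Snx9, Arf3, Gnb1, Dlx3 and Gpatch1, with Pearson's r of 0.926, 0.925, 0.915, 0.908 and 0.903. With the mean of each condition removed these were 0.836, 0.774, 0.770, 0.782 and 0.783. Of the 9 other members, G6pdx had the highest r with Nfe2l2, 0.808, which was 0.560 with condition means removed. The value for Hmox1 was 0.684 and 0.079 with condition means removed, and that for Nqo1 was -0.305 and -0.205. The points share libraries, depth and scaling, and the values are a description with no test.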

How the data were processed

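RNA was measured in 24 libraries, 6 per condition, grouped by the sample titles. The authors processed reads with nf-core/rnaseq on GRCm39 and Ensembl annotations, giving Salmon gene tables, and their methods also name BWA-MEM mapping. The submitters' processing notes list BWA 0.7.12-r1039, bedtools 2.25.0, STAR and Salmon, and the builds mm10, hg19 and GRCm39. The labels state poly(A) selection and add that low-input samples were ribodepleted, without naming them. The deposited tables hold estimated counts (expected counts, not whole in 19% of non-zero values) and TPM per gene, not pooled.

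Estimated counts were rounded and fitted in edgeR 4.0.16 (R 4.3.3) with TMM factors, filterByExpr (minimum count 10, minimum total 15) and the robust quasi-likelihood F test, with 1 mean per condition. P-values were Benjamini-Hochberg adjusted over all 13315 genes tested, and a gene passed at an adjusted p under 0.05. The biological coefficient of variation was 14.8%. Ratios of TPM were compared with two-sided exact permutation tests, adjusted over 6 tests. Alternatives were DESeq2 1.42.0, limma 3.58.1 on log2(TPM + 1) and log2(TPM + 0.1), other factors and filters, a replicate block, and leaving out each library. The code was tested on simulated data. Of the identifiers, 98.9% were found in GENCODE M39 (GRCm39), used for positions, canonical lengths and sequences.

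The members and lists were chosen with earlier results of these data known. Named genes were all members, all tested regulators of the wider list, up to 3 listed genes per direction with the smallest p among those passing at each frequency, the 5 genes most like Nfe2l2, and the marker genes, besides genes marked as chosen after their values were seen. The marker lists were 8 myotube, 4 proliferation, 2 myoblast and 9 other genes. Of the 4 proliferation markers 1 was higher at 1 Hz, 1 higher and 2 lower at 4 Hz, and of the 2 myoblast markers 1 was lower (Pax7) and 1 higher (Myf5) at both. P-values measure the spread between cultures of 1 line.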

Additional observations from a re-analysis of the deposited data

Results flagged for a closer look

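In 2 of 48 groups of 6 libraries (10 genes in CPM and 2 ratios in 4 conditions), 1 library lay far from the others by Dixon's criterion at 95%, and chance gives about 1 in 20. Srxn1 at 4 Hz had 126.7 CPM in replicate 3, with the other 5 libraries between 139.8 and 144.8 CPM. This library also had a low TMM factor. The ratio of Nfe2l2 to Keap1 at 10 Hz was 5.834 in replicate 2, with the other 5 libraries between 6.881 and 7.409. No cause was tested for either value.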

How the results depend on the processing

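Replicates share numbers in the labels, and the values gave no sign that the numbers pair the samples, which does not exclude a pairing. Of 36 pairs with the same number, 3 had a correlation of deviations over 0.1 (range -0.33 to 0.24, mean -0.021, against 0.005 for different numbers), and 0 of 24 libraries correlated best with their own number. With the replicate block, members passed in these numbers against control: 9 (1 Hz), 9 (4 Hz), 0 (10 Hz), and Keap1 at 10 Hz against 1 Hz did not pass (0.21, adjusted p = 0.0650). Shares of all genes passing with the block are not given here. The blocked log2 ratios of Gclm to Gclc were 0.52 at 1 Hz and 0.62 at 4 Hz (adjusted exact p = 0.0938) and that of Nfe2l2 to Keap1 at 10 Hz was 0.19 (adjusted exact p = 0.125), in a sign-flip test of 6 pairs, whose smallest p is 0.0312. The value 0.0938 is the lowest adjusted p that 2 of 6 tests at that floor can give, so the block could not have kept the 2 calls of Gclm to Gclc and says nothing of their stability.

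Member counts moved by over 1.5 times only with the fold threshold of 0.5, which left 4 of them for 1 Hz, and 3 and 5 for 10 Hz set against 1 Hz and 4 Hz. Of the wider list, 7 passed at 1 Hz and 10 at 4 Hz with that threshold, 12 at 1 Hz and 16 at 4 Hz with limma on log2(TPM + 1) or log2(TPM + 0.1), and 15 at 1 Hz with TMM-scaled TPM. At 10 Hz, 1 passed (Gsta2) with DESeq2, with only the 2 groups in the fit, and without the 4 libraries of low TMM factor, a setting chosen after seeing the data. Shares of all genes passing in these settings at 10 Hz are not given here. Signs turned, with no call, for Nqo1 at 4 Hz against control (-0.14 and -0.15 with limma at the pseudocounts 1 and 0.1), Keap1 at 4 Hz against 1 Hz (-0.060 and -0.063), and Nqo1 at 10 Hz against 4 Hz (0.24 and 0.25, and 0.045 without the 4 libraries). The ratio of Nfe2l2 to Keap1 at 4 Hz was -0.045 from estimated counts. Calls for Nqo1 at 1 Hz and Keap1 at 10 Hz against 1 Hz were lost without the filter on low counts (adjusted p = 0.0649 and 0.0811), and the latter also with upper-quartile factors (0.0751) and with 2 groups in the fit (0.0888). Keap1 at 10 Hz against 4 Hz passed with limma (adjusted p = 0.00386 on log2(TPM + 1), 0.0365 with TMM). The causes were not tested.

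Leaving out 1 library gave log2 ratio differences of -0.039 to 0.068 for Gclm to Gclc at 10 Hz, and for Nfe2l2 to Keap1 of 0.16 to 0.26 at 1 Hz, -0.040 to 0.035 at 4 Hz and 0.17 to 0.24 at 10 Hz. It gave -0.11 to 0.0076 for Hmox1 at 10 Hz, above 0 without 10 Hz replicate 2, and -0.11 to 0.025 for Nqo1 at 10 Hz against 4 Hz, above 0 without 4 Hz replicate 4. Between 8 and 9 members passed for 1 Hz, 9 for 4 Hz and 0 for 10 Hz, with no share of all genes given for these fits.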
